A study of Mus musculus with 2 samples.

Results

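The genes described here encode the DNA-binding factors and cofactors that direct red blood cell formation. They are Gata1, Klf1, Tal1, Zfpm1, Lmo2, Ldb1 and Nfe2, 7 of the 21938 protein-coding genes in the GENCODE vM21 annotation of the mouse assembly mm10 (GRCm38). They were listed by name and not by a measured value. The locus of a gene was its annotated body with 20 kb on either side, and a peak belonged to a locus if its midpoint lay there. DNase-seq, which maps open chromatin through the places where the nuclease DNase I cuts nuclear DNA, was performed on spleen tissue of female B6CASTF1/J mice aged 36 days. B6CASTF1/J is a hybrid strain, and the labels list no treatment and no engineered allele. The 2 libraries, labelled biological replicates 1 and 2, formed 1 group. Their descriptions number the females differently but carry the same donor entry, so the spread between them may be technical in part. There was no second group to compare with, and no test was possible between conditions.

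GATA1 binds DNA through zinc fingers and recruits FOG1, the product of Zfpm1, which does not bind DNA by itself. TAL1 binds E-box sequences as a dimer with an E protein, and LMO2 and LDB1 bridge TAL1 to GATA1 in a complex known from erythroid enhancers and promoters. KLF1 binds CACC-box sequences at adult globin and other red cell genes, and NF-E2, whose large subunit is the product of Nfe2, binds AP-1-like sequences in the globin locus control region. The mouse spleen keeps a population of erythroid precursors in its red pulp beside far larger numbers of lymphocytes. Ldb1 is expressed in many tissues, Lmo2 also in endothelium and progenitors, and Gata1, Tal1 and Nfe2 also in megakaryocytes and some mast cells. In a whole tissue a weak peak can come from fewer open cells or from less openness in each cell, and these cannot be told apart here.

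The sequences below were picked after their values had been seen. They show promoter peaks of Gata1, Klf1 and Lmo2 that were in the shorter peak list of replicate 2 alone, the Gata1 element found in both libraries, the strongest element inside Klf1, and 1 GATA-holding element for each of the other genes. Each is the peak of replicate 2 in mm10 coordinates, read 5′ to 3′ along the strand of its gene from the RefSeq copy of assembly GRCm38. Capitals mark bases inside the deposited footprints of replicate 2, which are short stretches protected from cutting. Untranslated bases were left out, and the Tal1 element was limited to its central 300 bases.
Gata1 upstream element (chrX:7971381-7971560, minus strand): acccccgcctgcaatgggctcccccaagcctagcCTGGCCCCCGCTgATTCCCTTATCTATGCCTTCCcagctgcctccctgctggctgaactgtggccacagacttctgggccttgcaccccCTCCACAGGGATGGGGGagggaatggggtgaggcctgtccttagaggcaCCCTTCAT
Gata1 promoter, far peak (chrX:7968372-7968571, minus strand): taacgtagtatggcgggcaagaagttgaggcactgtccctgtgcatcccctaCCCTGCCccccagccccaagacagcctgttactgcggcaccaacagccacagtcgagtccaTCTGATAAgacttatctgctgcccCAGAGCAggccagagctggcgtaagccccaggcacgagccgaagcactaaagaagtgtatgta
Klf1 promoter, far peak (chr8:84901201-84901400, plus strand): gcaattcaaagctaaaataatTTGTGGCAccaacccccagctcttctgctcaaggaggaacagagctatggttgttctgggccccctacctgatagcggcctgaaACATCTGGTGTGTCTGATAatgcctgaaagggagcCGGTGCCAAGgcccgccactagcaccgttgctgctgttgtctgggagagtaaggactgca
Klf1 promoter, near peak (chr8:84901821-84901927, plus strand): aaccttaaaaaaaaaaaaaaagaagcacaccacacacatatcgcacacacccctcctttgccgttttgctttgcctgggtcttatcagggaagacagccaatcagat
Klf1 coding exon (chr8:84903121-84903300, plus strand): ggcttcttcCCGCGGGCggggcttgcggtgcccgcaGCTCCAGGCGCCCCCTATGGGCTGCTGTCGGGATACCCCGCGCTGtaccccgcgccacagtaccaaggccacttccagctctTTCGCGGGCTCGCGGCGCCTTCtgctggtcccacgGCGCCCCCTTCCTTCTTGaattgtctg
Tal1 downstream element (chr4:115095761-115096060, plus strand): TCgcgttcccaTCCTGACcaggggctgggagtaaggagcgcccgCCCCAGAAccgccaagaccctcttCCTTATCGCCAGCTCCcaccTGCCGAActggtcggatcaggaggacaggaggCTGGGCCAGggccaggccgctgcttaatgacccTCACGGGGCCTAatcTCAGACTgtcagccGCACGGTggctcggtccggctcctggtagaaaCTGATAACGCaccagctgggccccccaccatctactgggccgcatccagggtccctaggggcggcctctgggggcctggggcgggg
Zfpm1 intron (chr8:122309401-122309640, plus strand): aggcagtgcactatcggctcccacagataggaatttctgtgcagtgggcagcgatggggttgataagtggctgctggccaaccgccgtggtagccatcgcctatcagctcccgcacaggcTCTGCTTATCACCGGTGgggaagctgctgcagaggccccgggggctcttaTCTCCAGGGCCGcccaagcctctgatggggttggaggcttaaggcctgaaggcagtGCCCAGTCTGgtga
Lmo2 distal promoter (chr2:103957741-103957960, plus strand): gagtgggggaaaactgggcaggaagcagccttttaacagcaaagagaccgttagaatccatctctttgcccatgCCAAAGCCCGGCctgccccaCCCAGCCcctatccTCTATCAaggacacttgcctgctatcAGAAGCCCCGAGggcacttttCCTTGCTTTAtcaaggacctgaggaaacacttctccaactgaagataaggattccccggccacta
Ldb1 upstream element (chr19:46050541-46050760, minus strand): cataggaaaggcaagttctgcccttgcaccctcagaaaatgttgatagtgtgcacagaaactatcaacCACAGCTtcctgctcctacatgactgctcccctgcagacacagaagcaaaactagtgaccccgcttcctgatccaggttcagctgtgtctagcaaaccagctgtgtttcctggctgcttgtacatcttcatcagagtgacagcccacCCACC
Nfe2 promoter (chr15:103251701-103251900, minus strand): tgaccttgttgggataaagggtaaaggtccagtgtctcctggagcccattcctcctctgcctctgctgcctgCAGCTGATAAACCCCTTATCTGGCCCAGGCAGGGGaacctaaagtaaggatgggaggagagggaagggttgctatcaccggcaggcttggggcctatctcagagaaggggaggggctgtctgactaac

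Positions within these sequences are counted from the first printed base, and matches are set against the footprints of replicate 2. The GATA sequence searched on both strands was the letters GATA with A or T before them and A or G after them, for example TGATAA. In the Gata1 upstream element the single match, AGATAA on the opposite strand at bases 54 to 59, lay wholly within a footprint. In the far peak of the Gata1 promoter TGATAA at bases 116 to 121 lay within a footprint, whereas AGATAA on the opposite strand at bases 125 to 130 did not. In replicate 2 these elements thus each held a protected match, 1 upstream and 1 in the promoter. Replicate 1 had 3 footprints in the upstream element and 0 in the far promoter peak. The far peak of the Klf1 promoter held a composite of CTG, 7 or 8 bases and GATA, the spacing of the TAL1 and GATA1 complex. Its bases 110 to 124 were all footprinted in replicate 2, whereas replicate 1 had 0 footprints in this peak. The near peak of the Klf1 promoter also held such a composite, on the opposite strand at bases 83 to 97, with no footprint among the printed bases. The strongest element inside Klf1 lay in its coding sequence. It held no GATA sequence as defined above, but a composite on the plus strand at bases 58 to 71 lay wholly within a footprint. The element also held the core AGGGGGCGC, associated with the insulator protein CTCF, on the opposite strand at bases 44 to 52 and again at bases 154 to 162, both wholly within footprints. The match at bases 44 to 52 shared its footprint with the composite. That core was searched after this sequence had been seen, and it occurs in 2.84% of all peaks of replicate 1 and 2.09% of all peaks of replicate 2. No other peak of the 7 loci held it. In the Nfe2 promoter TGATAA at bases 77 to 82 and AGATAA on the opposite strand at bases 88 to 93 lay in 1 footprint together with the E-box CAGCTG at bases 73 to 78. A match describes the letters and does not show that a factor was bound.

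Each library came with 2 deposited peak lists, a shorter and a longer, and each peak carried a signal value that is the authors' own. The shorter lists, used here unless stated, held 42454 peaks in replicate 1 and 60683 in replicate 2. The longer lists held 61285 and 89476. Sequencing depth is not given in the sources used here, so signal served only to describe and rank within a library. Rank 1 is the strongest peak, and the rank is also given as a percentage of the list. Over the 7 loci the shorter lists held 46 peaks in replicate 1 and 71 in replicate 2 (58.5 ± 17.7, SD, n = 2). In replicate 2 these were 23 peaks within 1 kb of an own start site, 1 in an own exon, 17 in own introns, 9 upstream, 10 downstream and 11 at start sites of other genes. In replicate 1 the numbers were 11, 1, 11, 7, 6 and 10 in the same order. The extra peaks of replicate 2 were thus mostly at own start sites and in introns, and start sites of neighbouring genes added 1. In the top 10% of their list ranked 4 of 46 and 11 of 71 peaks, and 15 and 20 ranked below the middle of it.

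**Figure D1:**
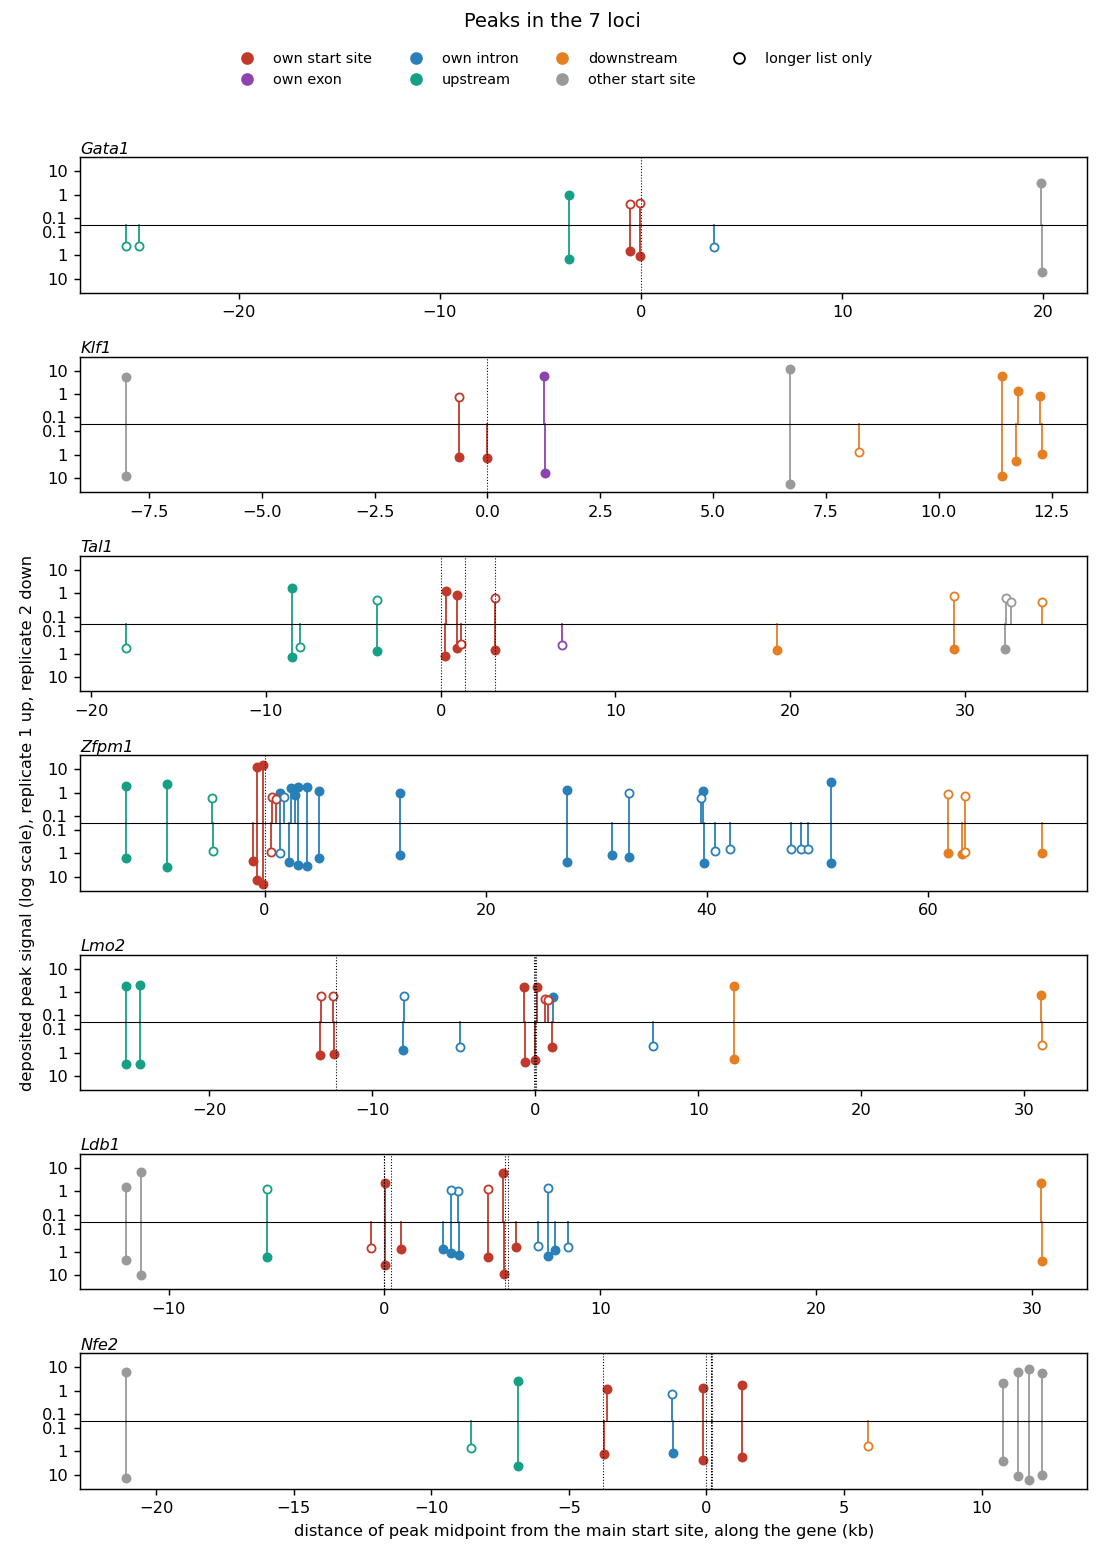
Peaks of the 7 loci by distance from the main start site along the gene (horizontal axis, kb) and deposited signal (vertical axis, log scale), with replicate 1 upward and replicate 2 downward. Filled points are peaks of the shorter lists, open points those of the longer lists alone, colours give the class and dotted lines the start sites of the basic annotation; Gata1 and Klf1 have filled own-start-site points in replicate 2 alone.

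An open start site was found for 5 of the 7 genes in replicate 1 and for 7 of 7 in replicate 2. Tal1, Zfpm1, Lmo2, Ldb1 and Nfe2 had a peak within 1 kb of an own start site in both libraries, whereas Gata1 and Klf1 had one in replicate 2 alone. Among all protein-coding genes the share was 53.4% in replicate 1 and 56.9% in replicate 2. Genes with such a peak in replicate 2 alone made up 3.81% of all genes (836), and 0.287% (63) had one in replicate 1 alone. In the longer lists all 7 genes had a peak at an own start site in both libraries, against 57.4% and 61.9% of all genes. When replicate 2 was reduced to its strongest 42454 peaks, Gata1 and Klf1 still had one. Of the 21 start sites annotated for the 7 genes, 17 had a peak in replicate 1 and 21 in replicate 2. The 4 without one in replicate 1 were the start sites of Gata1 and Klf1, the innermost of Tal1 and the distal one of Lmo2.

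The strength of the open start sites differed widely between the genes. In replicate 2 the strongest own-start-site peak lay at 0.554% of the list for Zfpm1, 7.08% for Ldb1, 25% for Lmo2, 27.1% for Nfe2, 41.1% for Klf1, 46.5% for Tal1 and 54% for Gata1. In replicate 1 it lay at 0.429% for Zfpm1, 10.8% for Ldb1, 40.9% for Nfe2, 43.2% for Lmo2 and 52.4% for Tal1. Zfpm1 and Ldb1 were thus the strongest in both libraries, and Lmo2 and Nfe2 exchanged places, so their order did not hold beyond the spread. The CpG content of the main start site, observed over expected within 500 bases on either side, was 0.969 for Zfpm1, 0.88 for Lmo2, 0.877 for Ldb1 and 0.804 for Tal1, above the median of 0.57 over all genes. It was 0.229 for Gata1, 0.108 for Nfe2 and 0.0783 for Klf1. The genes without a start-site peak in replicate 1 were both among the CpG-poor ones, and Nfe2, also CpG-poor, had such a peak in both libraries.

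**Figure D2:**
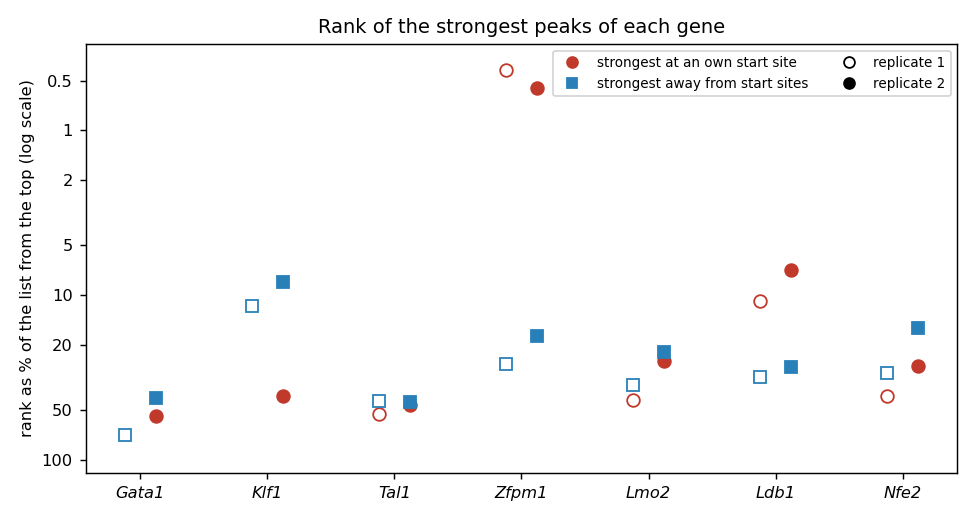
Rank of the strongest peak at an own start site (circles) and away from all start sites of the basic annotation (squares) for each gene. The rank is a percentage of the list from the top on a log axis. Open symbols are replicate 1 and filled symbols replicate 2; Gata1 and Klf1 have no circle for replicate 1, and Zfpm1 stands highest at 0.429% and 0.554%.

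Gata1, on the X chromosome (chrX:7959260-7978071, minus strand), encodes the central factor of the erythroid programme. Its locus held 2 peaks in replicate 1 and 4 in replicate 2. A peak immediately upstream of the start site, chrX:7967881-7968080, had signal 1.04 and rank 32798 in replicate 2. The far promoter peak printed above, 562 bases upstream at chrX:7968372-7968571, had signal 0.682 and rank 45353. Neither was in the shorter list of replicate 1, and its longer list had narrower peaks at both places, with signals 0.454 and 0.401 at 84.6% and 89.8% of that list. The cut rate track, a false discovery rate (FDR) per run of bases, was read at the same places. Within 1 kb of the start site the lowest FDR was 0.0132 in replicate 1 and 3.28e-11 in replicate 2. Evidence for an open Gata1 promoter was thus weak in replicate 1 and clearer in replicate 2, in libraries of unknown depth. The upstream element at chrX:7971381-7971560, 3560 bases from the start site, was called at identical coordinates in both libraries, with signal 0.928 and rank 29814 in replicate 1 and signal 1.39 and rank 25666 in replicate 2. Its lowest FDR was 1.52e-07 and 2.5e-16, and it held 3 and 4 footprints. In both libraries this element outranked the promoter peaks. It lies inside the gene body only because transcripts of the full annotation start 10161 bases upstream of the main start site. The strongest peak of the locus, at rank 10345 and 8256, was at the start site of the neighbouring gene Hdac6.

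Zfpm1 (chr8:122282141-122337251, plus strand), which encodes the GATA1 cofactor FOG1, had the most peaks of the 7 loci, 14 and 18. The peak at its start site, chr8:122281821-122282120 in replicate 1 and chr8:122281841-122282120 in replicate 2, had signals of 15.1 and 21.2 and ranks of 182 and 336. A neighbouring peak at chr8:122281361-122281600 had signals of 12.4 and 13.6 and ranks of 595 and 1890. A weaker peak at chr8:122281021-122281220 (signal 2.1, rank 18208) was called in replicate 2 alone, although the lowest FDR of the cut rate track there was 2.62e-14 in replicate 1 and 1.2e-16 in replicate 2. The start site of Zfpm1 thus held the highest-ranked peak of all 7 loci in both libraries. Inside the gene 10 intronic peaks were called in each library. The printed intron element, 27.4 kb from the start site, held 4 GATA sequences in its narrower form in replicate 1 and 5 in replicate 2, with ranks 22162 and 17140. Its TGATAA on the opposite strand at bases 126 to 131 was wholly footprinted in replicate 2. AGATAA on that strand at bases 168 to 173 was footprinted in part, and the other GATA matches of the printed sequence lay outside footprints. Away from the start site the strongest peak was intronic at 51.2 kb in replicate 1 (rank 11163) and upstream by 8.8 kb in replicate 2 (rank 10720). The first of these lay 338 bases from a start site that only the full annotation lists.

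Tal1 (chr4:115056426-115071755, plus strand), the basic helix-loop-helix factor of the complex, had a weakly open locus with 3 and 8 peaks. At its main start site chr4:115056581-115056840 had signal 1.32 and rank 22246 in replicate 1, and chr4:115056541-115056860 had signal 1.24 and rank 28192 in replicate 2. A second pair near the next start site, chr4:115057250-115057498 and chr4:115057328-115057427, had signals of 0.823 and 0.548 and ranks of 32394 and 51803. The innermost start site was covered in replicate 2 alone, by chr4:115059453-115059581 (signal 0.641, rank 47178). The strongest peak of the locus was upstream, 8.49 kb before the start site in replicate 1 and 8.51 kb in replicate 2, at ranks 18662 and 27024. Mouse Tal1 is known to have an erythroid enhancer beyond its 3′ end. Outside the 20 kb limit, 39.6 kb and 39.5 kb downstream of the main start site, the libraries shared a peak (chr4:115095861-115096160 and chr4:115095741-115096080) with signals of 1.55 and 2.86. It ranked 19397 in replicate 1 and 14037 in replicate 2, above every peak within the Tal1 locus in replicate 2 and below the upstream peak in replicate 1. It held 4 and 10 footprints, and its TGATAA at bases 216 to 221 of the printed sequence was wholly footprinted in replicate 2.

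Lmo2 (chr2:103957986-103981878, plus strand) encodes the LIM-only bridge of the complex and is transcribed from a distal and a proximal promoter. Its locus held 7 and 9 peaks. At the proximal promoter chr2:103969421-103969640 and chr2:103970101-103970500 both had signal 1.66 in replicate 1 (ranks 18354 and 18355). In replicate 2 chr2:103969481-103969700 had signal 2.61 and rank 15143, chr2:103970081-103970380 had signal 2.08 and rank 18307, and a weak peak at chr2:103971201-103971339 had signal 0.574 and rank 50510. Its counterpart in replicate 1, chr2:103971246-103971340 (signal 0.601, rank 38572), began just past 1 kb from the start site and was counted as intronic. The proximal promoter was open in both libraries. The distal promoter was in the shorter list of replicate 2 alone, as chr2:103956929-103957140 (signal 1.2, rank 28949) and chr2:103957741-103957960 (signal 1.16, rank 29861). The longer list of replicate 1 had both, with signals of 0.665 and 0.696. The lowest FDR within 1 kb of the distal start site was 0.00376 in replicate 1 and 1.22e-10 in replicate 2. The second of these peaks, printed above, held 4 GATA sequences, 1 of them wholly footprinted in replicate 2. The strongest peak of the locus was 12 kb upstream of the distal start site in both libraries, at ranks 14897 and 13425, next to another at 12.9 kb.

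Ldb1 (chr19:46031570-46045214, minus strand), the self-associating adaptor that LMO2 binds, had 5 peaks in replicate 1 and 14 in replicate 2, the widest gap between the libraries. Its inner promoter was the stronger. There chr19:46039601-46039800 had signal 6.32 and rank 4572 in replicate 1, and chr19:46039581-46039780 had signal 8.79 and rank 4298 in replicate 2. At the outer promoter chr19:46045141-46045200 had signal 2.18 and rank 14308 in replicate 1, and chr19:46044981-46045360 had signal 3.52 and rank 11745 in replicate 2. Both promoters were thus open in both libraries. The shorter list of replicate 2 alone added weaker start-site peaks at chr19:46039105-46039140 (signal 0.63, rank 47637), chr19:46040321-46040520 (signal 1.69, rank 21744) and chr19:46044389-46044522 (signal 0.707, rank 44059). It also added 5 intronic peaks and the printed upstream element (rank 23069), in which TGATAG occurred on both strands outside the footprints of replicate 2. Of these added peaks 5 overlapped the longer list of replicate 1, the upstream element among them, and 4 overlapped neither of its lists. The start site of the neighbouring gene Pprc1 held the strongest peak of the locus, at ranks 4376 and 3493.

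Klf1 (chr8:84901928-84905291, plus strand), the erythroid CACC-box factor, lies in a densely open neighbourhood, and its 6 and 8 peaks were mostly not at its own start site. The near promoter peak chr8:84901821-84902020 (signal 1.44, rank 24962 in replicate 2) was in neither list of replicate 1, and no base of it was listed under an FDR of 0.05 there. The far promoter peak chr8:84901201-84901400 (signal 1.3, rank 27045 in replicate 2) had a counterpart only in the longer list of replicate 1, with signal 0.717. The lowest FDR within 1 kb of the start site was 0.000996 and 1.67e-10. By contrast the coding-exon peak, chr8:84903081-84903300 and chr8:84903121-84903300, had signals of 5.98 and 6.15, ranks of 4978 and 6839 and lowest FDRs of 2.13e-48 and 9.81e-57 over the replicate 2 interval. The exon of Klf1 was thus in both shorter lists and the promoter in 1. A peak 11.4 kb downstream, within the annotated bodies of Dnase2a and Mast1, ranked 5266 and 5089. The strongest peak was at the start site of Dnase2a, a lysosomal nuclease gene, with ranks of 869 and 677.

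**Figure D3:**
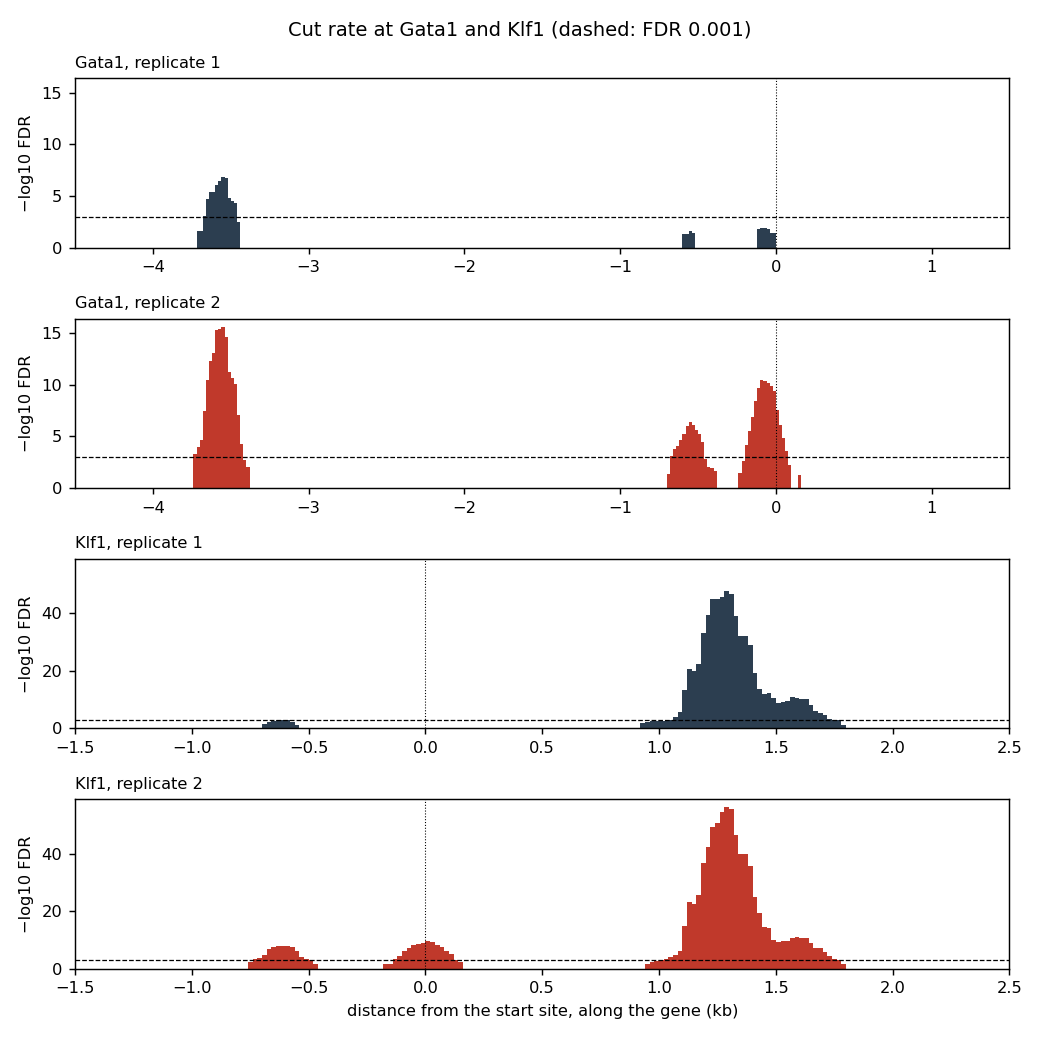
Cut rate track around the start sites of Gata1 and Klf1 as −log10 of the lowest FDR in 20-base bins (vertical axis) against distance from the start site along the gene (horizontal axis, kb), 1 panel per library; the dashed line marks an FDR of 0.001 and empty bins were not listed under 0.05. The promoter signal is low or missing in replicate 1, where the lowest FDRs within 1 kb are 0.0132 and 0.000996, whereas the Gata1 upstream element and the Klf1 exon pass the line in both libraries.

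Nfe2 (chr15:103248212-103258403, minus strand), which encodes the haematopoietic subunit of NF-E2, had 9 and 10 peaks. At its main start sites the printed promoter peak was chr15:103251735-103251874 in replicate 1 (signal 1.27, rank 23001) and chr15:103251701-103251900 in replicate 2 (signal 2.36, rank 16425). It held 3 GATA sequences in its narrower form in replicate 1 and 4 in replicate 2. A peak on the far side of the start sites, chr15:103250308-103250480 and chr15:103250321-103250480, had signals of 1.76 and 1.79 and ranks of 17368 and 20673. At the outer start site chr15:103255181-103255420 and chr15:103255301-103255501 had signals of 1.15 and 1.25 and ranks of 25013 and 27954. All these start-site peaks were thus found in both libraries, in contrast to the other CpG-poor genes Gata1 and Klf1. The strongest peak of Nfe2 away from start sites of other genes, chr15:103258341-103258700 and chr15:103258381-103258700, ranked 12621 and 9664. It was counted as upstream, but lay 118 and 138 bases from a start site that only the full annotation lists. The strongest peak of the locus was at the paired start sites of Cbx5 and Hnrnpa1, at ranks 2202 and 1177.

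The loci were more densely covered with peaks than those of most genes. The median over the 7 genes was 1.1 peaks per 10 kb of locus in replicate 1 and 1.84 in replicate 2 (1.47 ± 0.53, SD, n = 2), and the median over all protein-coding genes was 0.336 and 0.437 (0.387 ± 0.072). Nfe2 was densest in replicate 1, at 1.79, and had 1.99 in replicate 2. Ldb1 was densest in replicate 2, at 2.61, but had 0.932 in replicate 1. Zfpm1 had 1.47 and 1.89, Klf1 1.38 and 1.84, and Lmo2 1.1 and 1.41. Tal1, at 0.542 and 1.45, also differed between the libraries, and Gata1 was lowest in both, at 0.34 and 0.68. For Gata1 50.3% and 64.4% of all genes had a lower density, so its locus was ordinary in this respect, whereas for Nfe2 97.4% and 95.7% did. When replicate 2 was reduced to as many peaks as replicate 1, Tal1 had 3 and 2 peaks and no longer a gap in favour of replicate 2, whereas Ldb1 had 5 and 11. Start sites of neighbouring genes entered these counts at every locus except those of Zfpm1 and Lmo2, at Tal1 in replicate 2 alone.

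**Figure D4:**
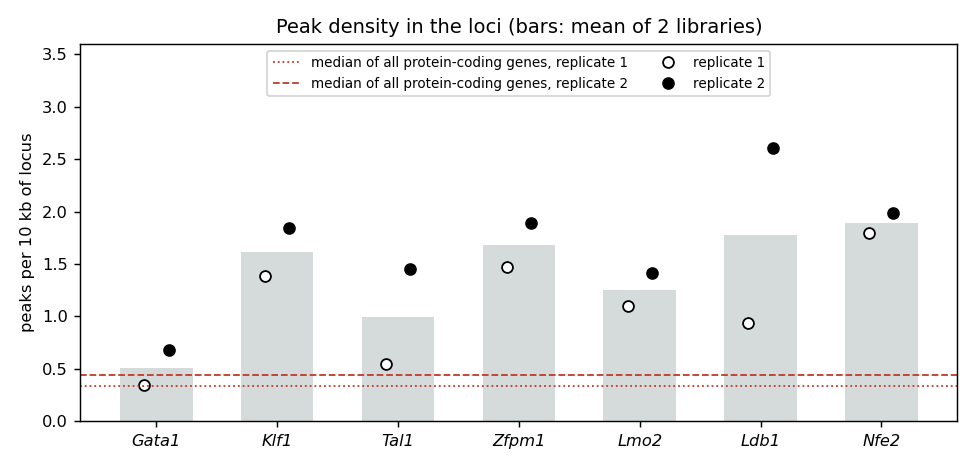
Peaks of the shorter lists per 10 kb of locus for each gene, with bars for the mean of 2 libraries, open points for replicate 1 and filled points for replicate 2. The dotted and dashed lines are the medians over all protein-coding genes, 0.336 and 0.437; every filled point lies above them, and Gata1 in replicate 1 (0.34) lies on its line.

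Peaks of replicate 1 nearly all recurred. Of its 46 locus peaks 43 overlapped a peak in the shorter list of replicate 2 (93.5%, 95% Wilson interval 82.5 to 97.8), and the share over all its peaks was 93.8%. Of the 71 locus peaks of replicate 2 the overlapping ones were also 43 (60.6%, 48.9 to 71.1), against 65.7% of all its peaks. Both shares were near those of the whole lists, so the recurrence of these loci was ordinary. Of the 28 other peaks of replicate 2, 18 overlapped the longer list of replicate 1 and 10 neither list. The intervals cover counting error only, and peaks of 1 locus are not independent. The 28 lay at a median of 53.6% of the list and the 43 at 25%, and over all peaks of replicate 2 the medians were 77.3% and 33.8%. Peaks missing from replicate 1 were thus the weaker ones, both in these loci and in general.

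GATA sequences were frequent in the peaks of these loci. In replicate 1, 16 of 46 locus peaks held at least 1 (34.8%, 95% Wilson interval 22.7 to 49.2), against 15.0% of all peaks. In replicate 2 the count was 25 of 71 (35.2%, 25.1 to 46.8), against 18.1%. Away from start sites of the basic annotation it was 12 of 25 in replicate 1 (48%, 30 to 66.5) against 18.5%. In replicate 2 it was 16 of 37 (43.2%, 28.7 to 59.1) against 21.7%. Both counts include a peak of Nfe2 and a peak of Zfpm1 within 1 kb of start sites that only the full annotation lists. All 4 intervals lay above the share over all peaks, and they too cover counting error only. The median peak width was 200 bases in these loci and 189 and 191 over all peaks. Zfpm1 contributed 6 and 8 of the GATA-holding peaks, more than any other gene. GATA-holding peaks were not the strongest, with a median position of 49.1% and 41.1% of the list against 34.6% and 30.1% for the other peaks of the loci, and over all peaks 55.1% and 53.7% against 48.9% and 48.9%. Of the 28 peaks of replicate 2 without a counterpart in the shorter list of replicate 1, 11 held a GATA sequence (39.3%), against 14 of the 43 shared (32.6%).

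The other sequences varied in how they compared with all peaks. The KLF box CCNCACCC was found in 10 of 46 peaks (21.7%, 12.3 to 35.6) and in 16 of 71 (22.5%, 14.4 to 33.5), against 12.9% and 13.1% of all peaks. The composite of CTG, 7 or 8 bases and GATA, which overlaps GATA sequences, was found in 2 (4.35%) and 7 (9.86%, 4.86 to 19), against 2.47% and 3.07%. The E-box CAGNTG was found in 54.3% and 43.7%, against 41.6% and 44.2%. The core TGAGTCA of NF-E2 and AP-1 was found in 1 peak of each library (2.17% and 1.41%, against 3.25% and 4.06%). The RUNX sequence TGTGGTT was found in 2.17% and 4.23%, against 5.45% and 6.34%. The ETS sequence CCGGAAGT was found in none, with upper interval limits of 7.71% and 5.13%, against 3.13% and 2.41%. The intervals of the KLF box and of the composite lay above the share of all peaks in replicate 2 alone. Those of the E-box, TGAGTCA, RUNX and ETS sequences held the share of all peaks in both libraries.

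**Figure D5:**
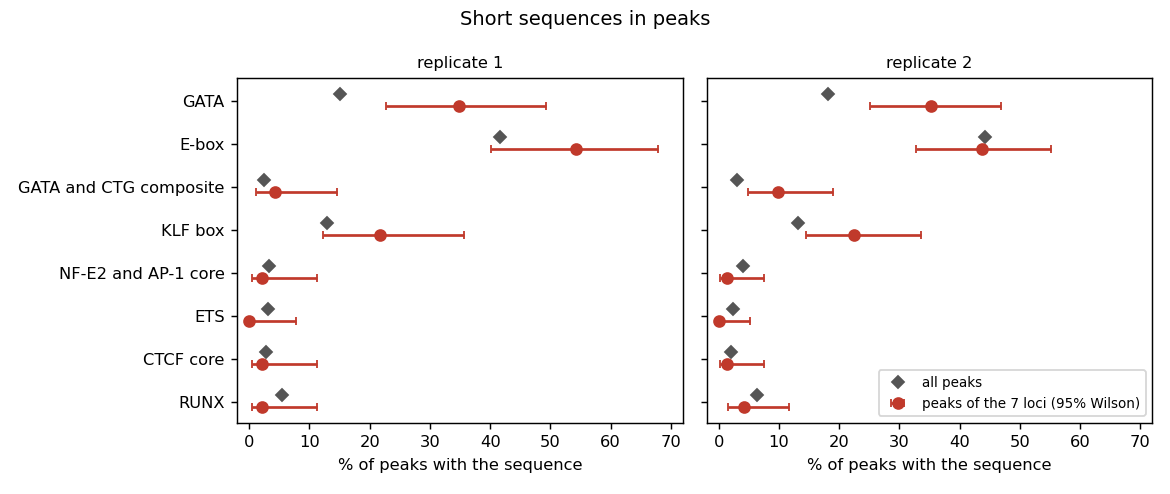
Share of peaks that hold each short sequence (horizontal axis, %) in the 7 loci (circles with 95% Wilson intervals) and over all peaks (diamonds), 1 panel per library. GATA stands at 34.8% and 35.2% in the loci with intervals above the diamonds at 15.0% and 18.1%.

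The RefSeq promoter table, which covers 250 bases before to 50 after a start, matched 8 promoters, 1 each for Gata1, Klf1 and Zfpm1, 2 for Tal1 and 3 for Ldb1. A GATA sequence was present in 3 of the 8, those being promoters of Klf1, Tal1 and Ldb1, against 29.8% of all 32851 promoters. The KLF box was present in promoters of Gata1 and Ldb1 (2 of 8, against 16.6%). The composite of CTG and GATA was present in promoters of Klf1 and Tal1 (2 of 8, against 4.82%). Promoters of 1 gene can overlap, and with 8 promoters no order was read from these counts.

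Footprints showed the same letters at finer scale. The locus peaks held 134 footprints in replicate 1 and 224 in replicate 2, or 2.91 and 3.15 per peak against 2.43 and 2.75 over all peaks. Of the locus peaks 40 of 46 and 71 of 71 held at least 1, against 85.8% and 91.2% of all peaks. A GATA sequence within the footprint widened by 5 bases on either side was present in 8 of 134 (5.97%, 3.06 to 11.3) and 17 of 224 (7.59%, 4.79 to 11.8), against 1.13% and 1.97% of all footprints in peaks. Both intervals lay above the background, but they cover counting error only, and footprints of 1 peak or 1 locus are not independent. Zfpm1 held 3 of the 8 and 6 of the 17, Nfe2 3 and 1, and Lmo2 1 and 5. Of the footprints 90 of replicate 1 (67.2%) and 84 of replicate 2 (37.5%) overlapped a footprint of the other library by at least 50% of the shorter one, against 68.6% and 40.8% of all footprints in peaks.

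Partners and lineage relatives of these factors were mostly open at their start sites. Of 29 such genes 26 had a peak at an own start site in both libraries, among them Bach1, Bcl11a and Cbfa2t3, and 3 had none in either (Gata2, Ldb2 and Zfpm2, the relatives of Gata1, Ldb1 and Zfpm1). Over all protein-coding genes 53.1% (11653 of 21938) had one in both libraries and 42.8% had none in either. In the longer lists Gata2 had one in both libraries and Zfpm2 in replicate 2. Of 26 red cell target genes 19 had one in both, among them Ank1, Bcl2l1 and Car2. As with Gata1 and Klf1, 3 targets had one in replicate 2 alone: Car1, a red cell carbonic anhydrase, Ermap, an erythroid membrane protein, and Rhd, a blood group gene. The share of all protein-coding genes with one in replicate 2 alone was 3.81%. In the longer lists 22 targets had one in each library, these 3 among them. The remaining 4 had none, namely Alas2, the erythroid enzyme that begins haem synthesis, Slc25a37, a mitochondrial iron importer, and the alpha-globin genes Hba-a1 and Hba-a2. The last are near-identical copies, and whether reads were assigned to them uniquely was not tested. The median density was 1.02 and 1.33 peaks per 10 kb for partners and 0.766 and 0.876 for targets.

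Markers of other cells that use these factors varied in how many had a peak at a start site, and 42.8% of all protein-coding genes had none in either library. Of 8 megakaryocyte and platelet genes 0 had an own-start-site peak in replicate 1 and 1, Gp9, in replicate 2. Of 8 genes of mast cells, basophils and eosinophils 1, Kit, had a peak in both libraries, and Cpa3, Epx and Fcer1a had none. Of 7 endothelial genes Kdr and Pecam1 had one in both and Tie1 in replicate 2. Macrophage genes numbered 2 of 7 in replicate 1 and 5 of 7 in replicate 2, where C1qa, Cd68 and Vcam1 were added, and stem and progenitor genes 3 and 4 of 7. In the longer lists the counts for replicates 1 and 2 were 0 and 3 of 8 for megakaryocytes, 1 and 1 of 8 for mast cells, basophils and eosinophils, 2 and 4 of 7 for endothelium, 5 and 6 of 7 for macrophages and 4 and 6 of 7 for stem cells and progenitors. All 7 B cell genes had one in both libraries, as did 6 of 8 T cell genes, the lymphocyte markers of the labelled tissue. Start-site peaks in replicate 2 alone were thus found for 3 macrophage genes. They were also found for 1 gene each of the T cell (Cd3e), megakaryocyte, endothelial and stem cell lists. The B cell list and that of mast cells, basophils and eosinophils had 0. Over all protein-coding genes 836 had one in replicate 2 alone and 63 in replicate 1 alone. The part of other cell types in the values of the 7 genes was not tested.

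By the summed peak signal per 10 kb of locus, ranked as a percentile among all protein-coding genes, Nfe2 stood at 97.4 and 98.6 and Klf1 at 97.2 and 97.3. Zfpm1 stood at 92.5 and 92.7, Ldb1 at 86.4 and 92.2, Lmo2 at 65.5 and 68.8, Gata1 at 47.5 and 55 and Tal1 at 47.3 and 51.4. Klf1 and Nfe2 thus ranked near the top on this measure, which includes peaks at start sites of neighbouring genes. At Nfe2 the strongest such peak, of Cbx5 and Hnrnpa1, had signals of 8.83 and 16, and that of Copz1 6.53 and 13.8. The strongest other peak there had 2.51 and 4.36. At Klf1 the peak of Dnase2a had 11.5 and 18.6 and that of Gcdh 5.2 and 7.87, and the strongest other peak 5.98 and 7.79. The percentiles of Klf1 and Nfe2, and the matches below, thus depend largely on neighbouring genes. Of the 29 partners, the gene nearest to both Gata1 and Tal1 over the 2 libraries was Runx1, at 50.2 and 54.1, with distances of 2.81 and 3.92 percentile points. The nearest was Mta2 for Klf1 (0.488), Mafk for Zfpm1 (0.616), Fli1 for Lmo2 (4.14), Nfe2l1 for Ldb1 (3.48) and Lyl1 for Nfe2 (0.527).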

How the data were processed

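DNase-seq peaks, footprints and a cut rate track were deposited for 2 spleen libraries on mm10. Per the deposited readme files, each was derived from the alignments of its own library, without pooling. For the aligner and the callers, names and versions were not given in the sources used here. Peak signal is the authors' deposited signal, used within a library to rank peaks and, summed per 10 kb of locus, to rank genes. The deposited q-values (FDR, listed as p-value type numbers) are 0.01 on every footprint line and below 0.05 in the cut rate track. The midpoint stood for each peak. Start sites came from the basic GENCODE vM21 set, and the full set was an alternative. Sharing meant an overlap of at least 1 base.

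The 7 genes, the gene lists and the sequences searched were chosen with earlier results of these data known. The named peaks were by rule all own-start-site peaks and the strongest of each locus, also away from start sites, with up to 3 list genes per outcome in alphabetical order. Other peaks, the printed elements and a further target gene were named after their values were seen. With 2 libraries of 1 group no p-value was computed; values are counts, mean ± SD, and shares with 95% Wilson intervals. Depth is unknown, and no limit set by depth could be given. The effect of sequence differences between CAST and the reference was not tested. Range queries and sequence searches were checked on made-up data with known answers. Python 3.11.15, NumPy 2.4.6 and SciPy 1.17.1 were used. Alternatives were longer lists, other flanks, windows, overlaps and sequences, equal peak numbers, the stronger peaks alone, and each library alone.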

Additional observations from a re-analysis of the deposited data

Results flagged for a closer look

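Footprints were also called in the 7 loci outside every peak of both lists. There were 16 such footprints of 173 in the loci in replicate 1 and 57 of 328 in replicate 2. They entered no comparison above, and were singled out because they are signal outside the peaks; no control library was available to set beside them.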

How the results depend on the processing

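Of 56 values computed under alternatives for the main results, 48 stayed within 1 SD between the libraries or, for counts, within 1.5 times the reported count. The median density of 1.47 peaks per 10 kb became 2.02 with the longer lists. The share of locus peaks with a GATA sequence, 35.0% ± 0.303 (SD, n = 2), became 33.6% with the longer lists, 36.7% with 10 kb flanks, 27.1% with 50 kb flanks, 37.7% with equal numbers of peaks, 34.5% with the stronger peaks alone (8 of 31 in replicate 1, 25.8%, interval 13.7 to 43.2, and 22 of 51 in replicate 2, 43.1%, 30.5 to 56.7, against 13.1% and 16.3% of all such peaks), 30.4% when GATAA was searched and 34.3% in 200-base windows. The last of these and the full set of start sites were added after seeing the data. The SD of 0.303 is between libraries that share 43 locus peaks, and it does not measure the counting error of the share. With GATAA the shares were 32.6% (20.9 to 47) and 28.2% (19 to 39.5), against 11.4% and 13.7% of all peaks. With 50 kb flanks they were 25.8% (16.7 to 37.4) and 28.4% (20.3 to 38.2), against 15% and 18.1%. The number of genes with an own-start-site peak, 6 ± 1.41, ranged from 5 with the stronger peaks alone to 7 with the longer lists. With 1 library left out it was 5 or 7, the number of locus peaks 46 or 71 and the footprints 134 or 224, so peaks and footprints differed by over 1.5 times between the libraries. Of 56 values per gene 9 moved by more. No paired analysis was possible because the libraries form 1 group. Unknown depth limits what the absence of a weak peak from replicate 1 shows.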

Other observations

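Between 20 and 50 kb from the body of Nfe2, outside its locus as defined above, both libraries shared a pair of upstream peaks away from annotated start sites. The nearer lay 53.7 kb from the main start site at ranks 9268 and 6917, and the farther 55.7 kb from it at ranks 9408 and 11225. Neither held a GATA sequence. The Tal1 downstream element was picked as a GATA-holding one, so no contrast is drawn with it. The shared peaks away from start sites of the basic annotation at this range from Gata1, Klf1, Zfpm1 and Lmo2 also held none.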
